A study of Mus musculus with 30 samples.

Results

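Slow-twitch muscle fibers build their contractile apparatus from their own set of protein isoforms, and 10 genes that encode such proteins were followed between mice on a fixed and on a shifting light cycle: the troponin genes Tnnt1, Tnni1 and Tnnc1, the tropomyosin gene Tpm3, the myosin genes Myl2, Myl3 and Myh7b, the calcium handling genes Atp2a2 and Casq2, and the Z-disc gene Myoz2. For 10 of 10 genes the fitted level was higher in mice under repeated advances (ADV) than in mice under the fixed cycle (LD), by 0.05 to 0.66 on the log2 scale, and 0 of 10 passed the test. Their levels varied widely between mice of the same group, by up to 32.1-fold for Myl2 among LD mice (14.3-fold without LD mouse 23), and most of them were high in the same mice and low in the same mice. Each gene was chosen by its symbol and had a single row among the 56951 symbols of the deposited tables. All 10 were among the 12030 genes tested, which had a mean over 20 reads and a mean over 0.5 FPKM (reads normalized for exon length and library size).

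Gastrocnemius muscle, taken with the plantaris, of 14 LD mice and 16 ADV mice, all wild-type males of the C57BL/6J strain, was sequenced with 1 library per mouse. LD mice stayed on a light-dark cycle that did not move, with light from 8 to 20 o'clock, and the ADV group had its cycle moved forward by 8 h every 4 days, for 64 weeks in both cases. The mice of both groups lived singly with a running wheel, had 2 weeks of entrainment and 2 weeks of darkness beforehand, and by the study's methods were about 14 weeks old when the schedules began and about 78 weeks old at their end. The tissue is a whole muscle that is mostly fast, so each value is a mean over fast fibers, slow fibers and all other cells of the sample, and fewer cells of a type and less RNA per cell cannot be told apart. Between 18875468.5 and 28512674 read pairs per library fell on exons. The counting error of a gene follows from this: the lowest library had 144 reads of Tnnt1 and 12 reads of Myh7b.

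Contraction in skeletal muscle starts when calcium binds troponin C, which through troponin I and troponin T moves tropomyosin away from the myosin binding sites of actin. Slow fibers use slow or cardiac isoforms at almost every step of this chain, and they return calcium to the sarcoplasmic reticulum through the SERCA2 pump where fast fibers use SERCA1. Such fibers contract slowly, resist fatigue and in mice are common in the soleus and rare in most of the gastrocnemius.

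The promoters of 4 members, the troponin genes and Myl3, are shown, because their letters let a reader see what these windows share and what they do not. Between mice Myl3 followed the troponins less closely than Tpm3, which is not shown. The Pearson's r with Tnni1 was 0.85 (LD) and 0.84 (ADV) for Myl3 and 0.99 in both groups for Tpm3. Both windows with an MCAT element are among those shown, so the choice does not represent the 9 that were found. RefSeq promoter windows were found for 9 of the 10 members, with Atp2a2 missing, and each sequence below runs 5′ to 3′ over the 210 bases from 250 to 41 bases before the RefSeq start, placed on GRCm39 by an exact match. Capitals mark matches to an E-box (CANNTG), an MCAT element (CATTCC or GGAATG, its other strand), a MEF2 site or a CArG box on either strand.
Tnnt1, chr7:4519015-4519224, minus strand: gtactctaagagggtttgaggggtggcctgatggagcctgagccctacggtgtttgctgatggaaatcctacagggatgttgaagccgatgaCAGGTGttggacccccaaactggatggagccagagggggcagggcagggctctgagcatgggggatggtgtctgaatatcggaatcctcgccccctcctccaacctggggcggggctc
Tnni1, chr1:135726909-135727118, plus strand: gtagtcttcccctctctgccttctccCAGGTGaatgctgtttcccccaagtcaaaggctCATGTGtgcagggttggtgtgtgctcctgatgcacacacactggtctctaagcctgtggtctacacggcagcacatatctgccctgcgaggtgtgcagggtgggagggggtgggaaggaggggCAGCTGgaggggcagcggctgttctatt
Tnnc1, chr14:30930019-30930228, plus strand: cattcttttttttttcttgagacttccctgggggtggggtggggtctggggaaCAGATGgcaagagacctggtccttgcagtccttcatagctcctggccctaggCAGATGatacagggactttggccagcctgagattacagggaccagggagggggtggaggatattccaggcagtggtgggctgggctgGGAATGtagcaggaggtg
Myl3, chr9:110592496-110592705, plus strand: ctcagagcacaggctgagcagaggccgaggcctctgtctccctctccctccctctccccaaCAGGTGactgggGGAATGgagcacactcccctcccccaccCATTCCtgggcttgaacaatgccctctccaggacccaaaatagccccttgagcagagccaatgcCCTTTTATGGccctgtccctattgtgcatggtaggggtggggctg

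Where RefSeq gave several windows (Tnni1, Myl2 and Tpm3), the one nearest to the start of the deposited row was used, which for Myl2 was still 7794 bases away. An E-box, the site that myogenic factors such as MyoD can bind, was in 8 of the 9 windows, all but that of Myoz2, and in 60.53% of the 27025 promoter windows of the same length. The MCAT element, which TEAD factors can bind, was in the windows of Tnnc1 and Myl3 and in 11.03% of all windows. A MEF2 site was in that of Casq2 alone (2.56% of all windows), a CArG box in that of Myl3 alone (1.16%) and the letters GATAAG in that of Myoz2 alone (5.71%). Of the windows not used, that of Myl2 held no E-box, those of Tnni1 and Tpm3 held no GGAAA, and that of Tpm3 held GATAAG. The letters GGAAA, the core of an NFAT site, were in the windows of Tnnt1, Tnni1, Tpm3, Myoz2 and Casq2 and in 49.95% of all windows. These matches describe the letters of a short window, and no binding was measured.

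Before the genes are taken in turn, 2 mice need naming. LD mouse 23 had the lowest level of its group for 9 of the 10 members, and ADV mouse 24 the highest of its group for all 10. The summed level of the adipocyte markers Adipoq, Plin1, Lep, Cidec and Retn was also the highest of its group in each of these mice, with 77.2 FPKM in LD mouse 23 (group range 8.72 to 77.2) and 212 FPKM in ADV mouse 24 (group range 5.86 to 212). Skeletal muscle markers were abundant in every library, with Acta1, Ckm, Myh4, Myh1 and Tnnt3 summing to between 49177 and 68064 FPKM. That sum was the highest of its group in LD mouse 23 (68064 FPKM) and near the lowest of its group in ADV mouse 24 (49647 FPKM). ADV mouse 24 also had the highest sums of its group for smooth muscle (86.7 FPKM), endothelium (72.7 FPKM) and fibroblast markers (348 FPKM). The part of fat or other tissue in the results was not tested. Fold changes, slow to fast ratios, ranges and slopes are also given without the 2 mice, which were picked from these same levels. Leaving out a low LD mouse and a high ADV mouse lowers the differences of ADV over LD and cannot widen the ranges. The direction of those changes was thus fixed by the choice, and the values without the 2 mice are a description.

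The slow troponins were present in every mouse and differed widely within both groups. Tnnt1 encodes slow troponin T, the subunit that ties the troponin complex to tropomyosin (chr7:4507662-4518958, minus strand, GRCm39). Its level ran from 7.28 to 154 FPKM in the LD group, with a median of 78.7, and from 27.3 to 359.6 FPKM in the ADV group, with a median of 91.1. LD mouse 23 was the lowest and ADV mouse 24 the highest, the groups overlapped, and 10 of 16 ADV mice exceeded the LD median. The log2 fold change of ADV over LD was 0.45 ± 0.34 (SE, 95% confidence interval −0.24 to 1.14, edgeR quasi-likelihood test, FDR = 0.380). Without LD mouse 23 and ADV mouse 24 it was 0.13 (FDR = 0.799).

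Tnni1 encodes slow troponin I, the inhibitory subunit (chr1:135727140-135738727, plus strand). It ran from 2.37 to 57.3 FPKM in the LD group (median 28.4) and from 10.8 to 149 FPKM in the ADV group (median 42.9). The groups overlapped over most of this range, although the ADV mice other than mouse 22 were all above 20 FPKM while 6 of the LD mice were below it. The log2 fold change was 0.65 ± 0.36 (−0.07 to 1.38, FDR = 0.215), the largest of the 3 troponins, and 0.35 without the 2 mice (FDR = 0.474).

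Tnnc1, the calcium-binding subunit that slow fibers share with the heart (chr14:30930269-30933686, plus strand), ran from 3.87 to 104 FPKM in the LD group (median 55.4) and from 18.3 to 239 FPKM in the ADV group (median 71.8). The lowest and highest mice were again LD mouse 23 and ADV mouse 24, and 10 of 16 ADV mice exceeded the LD median. The log2 fold change was 0.54 ± 0.35 (−0.18 to 1.26, FDR = 0.307), and 0.25 without the 2 mice. Tpm3, whose muscle product is slow alpha-tropomyosin (chr3:89979956-89999437, plus strand), had a median of 69.4 FPKM in the LD group (8.57 to 116) and of 84.3 FPKM in the ADV group (24.3 to 269), and its log2 fold change was 0.44 ± 0.32 (FDR = 0.366), or 0.16 without them. For both genes all but a few mice of either group lay within the range of the other group. Tpm3 also has products in cells that are not muscle fibers, and the deposited row does not separate them.

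The myosin light chains were the most abundant members per length of transcript. Myl2 encodes the slow regulatory light chain and Myl3 the slow essential light chain, both also the ventricular forms of the heart. Myl2 (chr5:122239046-122251535, plus strand) ran from 10.2 to 327 FPKM in the LD group (median 154) and from 81.7 to 448 FPKM in the ADV group (median 206). Myl3 (chr9:110592714-110598866, plus strand) ran from 11.3 to 284 FPKM in the LD group (median 177) and from 87.3 to 504 FPKM in the ADV group (median 233). The lower ends of the groups differed more than their upper ends: LD mice 23 and 33 were below every ADV mouse for both genes, and LD mouse 35 also for Myl3. The log2 fold change was 0.29 ± 0.31 for Myl2 (FDR = 0.552) and 0.50 ± 0.28 for Myl3 (FDR = 0.224). Leaving out LD mouse 23 and ADV mouse 24 gave 0.081 and 0.30. By rank, Myl3 came nearest to a difference of all members, with 13 of 16 ADV mice above the LD median and an unadjusted p of 0.0523 in the exact two-sided Wilcoxon rank-sum test on FPKM (adjusted over all genes tested, p = 0.186).

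Myh7b, a myosin heavy chain gene of slow muscle and heart whose RNA is known to yield little protein in many muscles, was close to the limit of what these libraries resolve (chr2:155453132-155476227, plus strand). Its level was 0.085 to 1.17 FPKM in the LD group (median 0.399) and 0.162 to 3.15 FPKM in the ADV group (median 0.642), and 13 of 16 ADV mice exceeded the LD median. Its log2 fold change was the largest of the members, at 0.66 ± 0.35 (−0.06 to 1.38, FDR = 0.202), and it rested in part on ADV mouse 24, since it was 0.36 without that mouse (FDR = 0.461). Myh7, the main slow myosin heavy chain and not one of the 10, had medians of 44.7 (LD) and 50.4 FPKM (ADV), with a log2 fold change of 0.46 ± 0.37 (FDR = 0.416).

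The calcium genes and the Z-disc gene differed least between the groups. Atp2a2 encodes SERCA2, the calcium pump of slow fibers and heart (chr5:122594403-122640288, minus strand), and ran from 13.9 to 106 FPKM in the LD group (median 51.8) and from 23.7 to 164 FPKM in the ADV group (median 55.5). The medians nearly coincided, and the log2 fold change was 0.23 ± 0.25 (FDR = 0.560), turning to −0.01 without LD mouse 23 and ADV mouse 24. Casq2, the cardiac and slow form of the calcium store protein calsequestrin (chr3:101993862-102053830, plus strand), was the only member with a lower median in the ADV group, at 14.6 FPKM (9.12 to 28.7) against 15.2 FPKM in the LD group (4.111 to 25.2). Its log2 fold change was 0.05 ± 0.19 (−0.34 to 0.44, FDR = 0.884), and −0.08 without the 2 mice. Myoz2, which encodes the calcineurin-binding Z-disc protein calsarcin-1 (chr3:122799855-122828664, minus strand), ran from 7.27 to 131 FPKM in the LD group (median 85.3) and from 50.7 to 167 FPKM in the ADV group (median 98.4). LD mice 23 and 33 lay below all ADV mice, the rest overlapped, and the log2 fold change was 0.26 ± 0.23 (FDR = 0.472), or 0.10 without LD mouse 23 and ADV mouse 24.

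**Figure D1:**
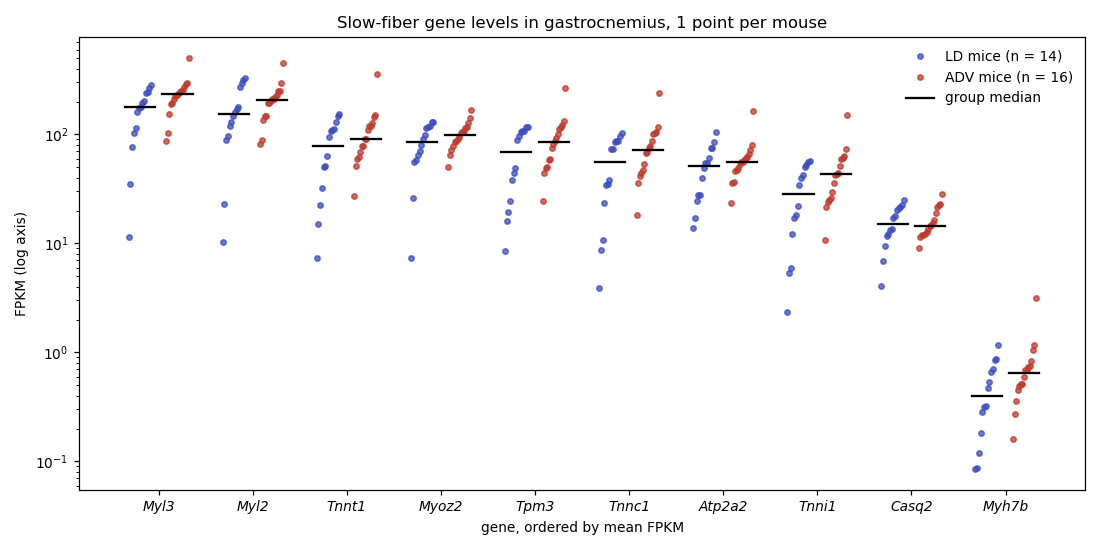
FPKM of the 10 slow-fiber genes on a log axis, with 1 point per mouse, LD in blue (n = 14), ADV in red (n = 16) and black bars at the group medians. The groups overlap for every gene, the lowest blue points fall well below the red ones for most genes, and the highest point of each gene is ADV mouse 24.

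Over the 10 members the median log2 fold change was 0.45, against 0.00 over the 12030 genes tested. No member passed an FDR of 0.05, where 10.8% of all genes tested did and 2.09% also had a fold change over 1.3, and the count of members with an unadjusted p under 0.05 was also 0, against 30.1% of all genes tested. DESeq2 and limma on log2(FPKM + 1) or on log2(FPKM + 0.1) likewise called 0 members, as did the Wilcoxon test on FPKM, which called 9.7% of all genes tested. A positive fold change was seen in 50.8% of all genes tested, so the 10 of 10 members share a direction, but since they follow each other from mouse to mouse they are not 10 separate observations of it. All 10 were positive with TMM, DESeq2 and library size scaling. Without LD mouse 23 and ADV mouse 24 the count was 8 of 10, with Atp2a2 and Casq2 the exceptions. The intervals are wide: for Tnni1 and Myh7b they ran from slightly below 0 to 1.38, so differences of up to that size are within the interval.

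**Figure D2:**
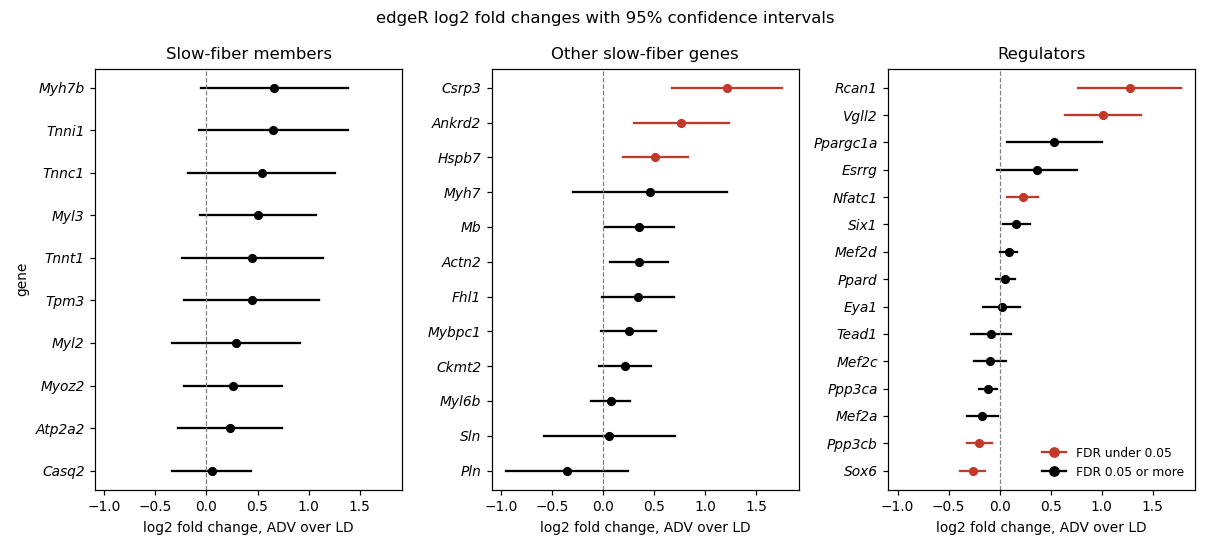
Log2 fold changes of ADV over LD from edgeR with 95% confidence intervals, for the 10 members (left), other genes of slow or oxidative fibers (middle) and regulators of the slow program (right), with genes of FDR under 0.05 in red. All intervals of the members include 0, while 3 genes in the middle panel and 5 on the right are in red.

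The spread between mice was the most marked property of these genes. The standard deviation of log2 CPM (counts scaled to library size with TMM) between LD mice was 1.34 for Tnnt1, 1.44 for Tnni1, 1.48 for Tnnc1 and 1.42 for Myl2, and it was smallest for Casq2, at 0.72. The median over all genes tested was 0.18. In the ADV group the values were 0.81 for Tnnt1, 0.87 for Tnni1, 0.84 for Tnnc1 and 0.60 for Myl2, and smallest for Myoz2 (0.43) and Casq2 (0.43), with a median of 0.20 over all genes. Within groups, 97.1% (Casq2) to 99.9% (Tnnc1) of all genes tested had a smaller standard deviation. Among genes in the same decile of mean expression the members were above 98.5% to 99.8%.

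All 10 members had a larger standard deviation in the LD group than in the ADV group, and 37.1% of all genes tested did. The LD value was also the larger for all 10 without LD mouse 23 and ADV mouse 24, with a smaller gap for 7 and a larger gap for Atp2a2, Casq2 and Myh7b. Without LD mouse 23 the LD standard deviation of Myl2 was 1.01 and that of Myoz2 0.64, and without ADV mouse 24 the ADV values were 0.53 and 0.39. As ratios of the highest to the lowest mouse, Myl2 spanned 32.1-fold in the LD group and 5.48-fold in the ADV group, Myoz2 18.0-fold and 3.28-fold, and Tnnt1 21.2-fold and 13.2-fold. Without those 2 mice the ranges were 14.3-fold (LD) and 3.62-fold (ADV) for Myl2, 5.03-fold and 2.82-fold for Myoz2, and 10.3-fold and 5.49-fold for Tnnt1. Wide ranges were not limited to the members: among LD mice Myh7 spanned 23.6-fold, Ankrd2 18.9-fold and Csrp3 17.9-fold. No test of unequal spread was run.

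The fast counterparts of the members varied far less in the same libraries. Their standard deviations within groups ran from 0.14 (Tnni2) to 0.26 (Myh4), around the median of all genes, and 0 of 10 passed an FDR of 0.05 between the groups, with a median log2 fold change of −0.02. They were not flat, since they tended to be lower where Tnnt1 was higher. Pearson's r with Tnnt1 ran from −0.60 (Tnni2) to −0.76 (Myh4) in the LD group and from −0.11 (Casq1) to −0.61 (Myh4) in the ADV group. Without the 2 mice farthest from the Tnnt1 median it ran from −0.31 (Atp2a1) to −0.72 (Casq1) and from −0.26 (Myh4) to 0.31 (Tnni2). The slow to fast ratios below hold the changes of both genes. Set per length against its fast counterpart, each slow gene was a small part of the pair. The slow gene made up a median of 0.409% of Tnnt1 and Tnnt3 together in the LD group and 0.455% in the ADV group, 0.302% and 0.422% of Tnni1 and Tnni2, and 0.550% and 0.681% of Tnnc1 and Tnnc2. The shares were higher for the light chains (Myl3 with Myl1, 2.48% and 3.00%) and highest for Myoz2 with Myoz1 (6.43% and 6.88%).

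The log2 ratio of slow to fast gene was higher on average in the ADV group for all 10 pairs, by 0.28 (Casq2 to Casq1) to 0.98 (Myh7b to Myh4). It was 0.87 higher for Tnni1 to Tnni2 (−7.95 ± 0.91 in the ADV group against −8.82 ± 1.51 in the LD group, SD, two-sided permutation test, unadjusted p = 0.0604). It was 0.80 higher for Myl3 to Myl1 (unadjusted p = 0.0372), with 12 of 16 ADV mice above the LD median, and 0.98 higher for Myh7b to Myh4 (unadjusted p = 0.0441), with 13 of 16. These were 10 tests on related ratios, and the p-values were not corrected for their number. Without LD mouse 23 and ADV mouse 24 the ratio of Tnni1 to Tnni2 was 0.48 higher (p = 0.216), that of Myl3 to Myl1 0.41 higher (p = 0.147) and that of Myh7b to Myh4 0.60 higher (p = 0.155).

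**Figure D3:**
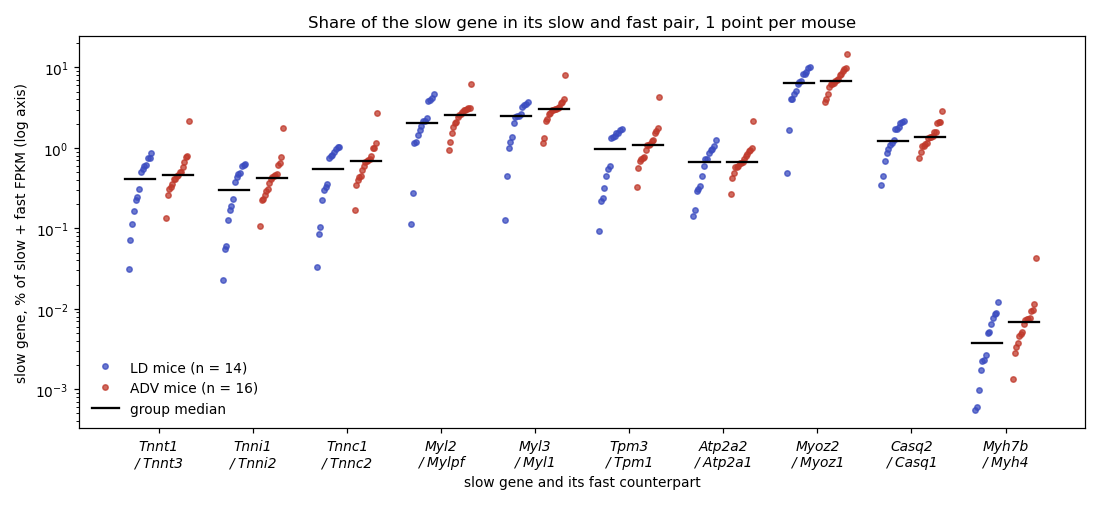
Share of the slow gene in the summed FPKM of the slow gene and its fast counterpart, in percent on a log axis, with 1 point per mouse, LD in blue, ADV in red and black bars at the group medians. The shares lie between 0.00055% for Myh7b in an LD mouse and 14.7% for Myoz2 in an ADV mouse, and the groups overlap in every pair.

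Between mice the members rose and fell together. Over the 45 pairs of members the median Pearson's r of log2 CPM was 0.88 in the LD group and 0.85 in the ADV group, and 20 and 16 pairs were above 0.9. Against the genes that are not members, the median r of a member was −0.02 in the LD group and −0.01 in the ADV group. The median Spearman's rho of the 45 pairs was 0.87 and 0.72. The r was also taken after removal of the 2 mice farthest from the median of the first gene of a pair. Its median was then 0.90 in the LD group and 0.70 in the ADV group. The ADV value was thus lower without the extreme mice, but their removal narrows the range of that gene, which by itself can lower an r. With permutation p-values adjusted over all genes tested, separately for the first-named gene of each pair, 40 of the 45 pairs passed 0.05 among LD mice and 27 among ADV mice.

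The share of all genes that passed with the same member differed widely. Among LD mice it was 4.82% with Tnnt1, 0.49% with Tnni1, 0.449% with Tnnc1, 3.29% with Tpm3 and 5.69% with Atp2a2. With Myl2 it was 7.0%, with Myl3 7.42%, with Myoz2 7.02%, with Casq2 8.83% and with Myh7b 6.53%. Among ADV mice the shares were far smaller, at 0.291% with Tnnt1, 0.283% with Tnni1, 0.266% with Tnnc1, 0.241% with Tpm3, 0.166% with Atp2a2, 0.324% with Myl2, 0.183% with Myl3 and with Myoz2, 0.0% with Casq2 and 0.0665% with Myh7b. The members' pairs passed at 40 of 45 and 27 of 45.

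The tightest of these were the thin filament genes. Tnni1 and Tnnc1 had an r of 0.995 in both groups, and Tnnt1 correlated with Tnni1 at 0.99 in both groups (rho 0.97 among LD and 0.99 among ADV mice, with a permutation p of 1e-05, the smallest they can give, for r and rho in both groups). Without the 2 farthest mice the r of Tnnt1 and Tnni1 was 0.98 in both groups. The troponin transcripts varied far less against each other than in level: the FPKM ratio of Tnni1 to Tnnt1 was 0.37 ± 0.06 (SD) in the LD group and 0.43 ± 0.04 in the ADV group, while the level of Tnnt1 spanned 21.2-fold and 13.2-fold. The ratio was above the LD median in 16 of 16 ADV mice. With the log2 CPM of Tnnt1 as a covariate, a fit chosen after the values were seen, Tnni1 was 0.20 ± 0.06 (SE) higher in the ADV group on the log2 scale (edgeR, FDR = 0.0565), and no other member was nearer to the threshold.

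**Figure D4:**
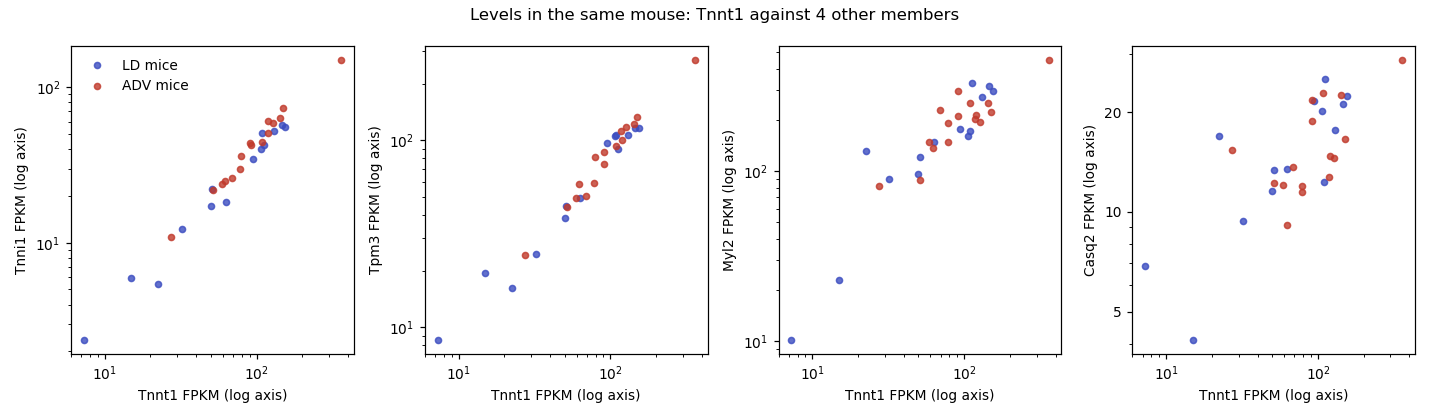
FPKM of Tnni1, Tpm3, Myl2 and Casq2 against FPKM of Tnnt1 in the same mouse, all on log axes, LD in blue (n = 14) and ADV in red (n = 16). Tnni1 and Tpm3 follow Tnnt1 along a narrow line, Myl2 scatters more, with 1 LD mouse far above the line, and Casq2 follows it loosely.

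By Pearson's r, 3 genes followed each other more closely than they followed the troponins: Myl2, Myl3 and Myoz2, with r between 0.97 and 0.98 in the LD group and between 0.90 and 0.94 in the ADV group. With Tnnt1 the r of Myoz2 was 0.91 in the LD group and 0.71 in the ADV group. By rank this did not hold for every pair, since among ADV mice the rho of Myl3 was 0.738 with Myl2 and 0.744 with Tnni1. This grouping was seen in the values and has no test of its own. LD mouse 27 shows it most plainly. Its Tnnt1 was 22.4 FPKM and its Tnni1 5.39 FPKM, among the lowest of the LD group, while its Myl2 was 131 FPKM, its Myl3 161 FPKM and its Myoz2 70.8 FPKM, near the middle of the group. The ratio of Myl3 to Tnnt1 was 7.19 in that mouse and had a median of 1.90 in the LD group. Without this mouse the median r over the 45 pairs in the LD group was 0.94.

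Casq2 was the loosest member. Its r with the other members ran from 0.73 (Tnnc1) to 0.88 (Myl2) in the LD group and from 0.46 (Myh7b) to 0.69 (Myoz2) in the ADV group, and with Casq2 no gene at all passed the adjusted threshold in the ADV group. The slope of each member on Myh7, both as log2 CPM within groups, also differed between members. A step of 1 in log2 CPM of Myh7 went with a step of 0.99 ± 0.03 (SE) on the log2 scale in Tnnc1, 0.97 ± 0.03 in Tnni1, 0.90 ± 0.03 in Tnnt1 and 0.85 ± 0.03 in Tpm3. The slopes were 0.76 ± 0.09 for Myl2, 0.67 ± 0.09 for Myl3, 0.59 ± 0.04 for Atp2a2, 0.56 ± 0.08 for Myoz2, 0.80 ± 0.07 for Myh7b and 0.34 ± 0.07 for Casq2. A slope below 1 can come from a smaller spread or from a looser correlation: the r with Myh7 was 0.99 for Tnnc1, 0.85 for Myl2, 0.81 for Myl3 and 0.70 for Casq2. In the fit without LD mouse 23 and ADV mouse 24 the slopes of Myl2, Myl3 and Myoz2 were 0.63 ± 0.10, 0.49 ± 0.10 and 0.39 ± 0.07, and that of Tnnc1 was 0.98 ± 0.04.

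**Figure D5:**
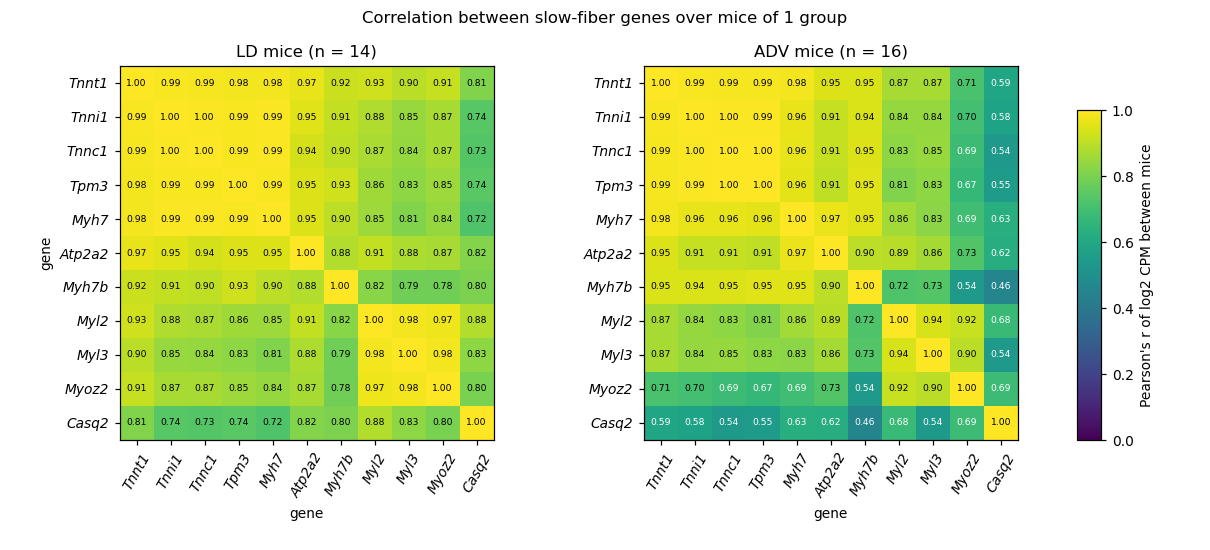
Pearson's r of log2 CPM between the 10 members and Myh7 over the 14 LD mice (left) and the 16 ADV mice (right), coloured from 0 (dark) to 1 (yellow). The troponins, Tpm3 and Myh7 form a block of r of 0.96 and above in both groups, Myl2, Myl3 and Myoz2 form another, and the row of Casq2 is the darkest, down to 0.46 with Myh7b in the ADV group.

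Outside the members, the genes that were most like them over the 30 mice (log2 CPM centred within each group, mean r with the 10 members) were led by Myh7, at 0.89. It was followed by Pdlim1 (0.87), a Z-disc and stress fiber adaptor, Tpm2 (0.86), beta-tropomyosin, and Pcp4l1 (0.85). The next were Actn2 (0.85), the alpha-actinin of Z-discs, Fhl1 (0.85), Smtnl1 (0.84), Apol6 (0.84), Fxyd6 (0.84) and Myom3 (0.84), an M-band protein. Only 22 of the 12020 genes that are not members had a mean r above 0.8. The most opposite were Spon1 (−0.76), Ace (−0.76), Prkab2 (−0.75), Dhdh (−0.75) and C7 (−0.70). Among these 15 genes Prkab2, a beta subunit of the energy sensor AMPK, fell in the ADV group (86.7 ± 8.89 against 98.96 ± 13.6 FPKM in the LD group, SD, log2 fold change −0.21 ± 0.07, SE, edgeR, FDR = 0.0402), and none of the others passed 0.05. Over all genes tested 10.8% passed, and the call of Prkab2 does not set these 15 genes apart from that share.

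Other genes of slow or oxidative fibers were looked up in the same fit. Of a list of 12, 3 rose and 0 fell, where 5.61% of all genes tested rose, with a median log2 fold change of 0.35 over the list. The list was chosen with earlier results of these data known, so these counts are a description. Csrp3, a muscle LIM protein of the Z-disc, ran from 10.4 to 186 FPKM in the LD group (median 100.2) and from 85.4 to 433 FPKM in the ADV group (median 238). It was above the LD median in 15 of 16 ADV mice and rose by 1.22 ± 0.27 (SE) on the log2 scale (FDR = 0.00540). Ankrd2, a stretch-responsive ankyrin repeat protein, rose from a median of 112 to 212 FPKM (0.77 ± 0.23, FDR = 0.0310), and Hspb7, a small heat shock protein, from 201 to 302 FPKM (0.51 ± 0.16, FDR = 0.0347). Without LD mouse 23 and ADV mouse 24, 2 of the 12 passed, and Hspb7 did not (FDR = 0.0631). Without ADV mouse 24 alone only Csrp3 passed, with Ankrd2 at an FDR of 0.0509, and likewise without LD mouse 28. With a score of clock gene levels as a covariate 0 of the 12 passed, as did 0 of all genes tested (1827 at an unadjusted p under 0.05, edgeR). The score is the mean scaled log2 CPM of some clock genes minus that of others. Several of these genes, though not all, differ between the groups themselves (Dbp by −1.66 on the log2 scale, edgeR, FDR = 0.000482). This fit therefore cannot separate the score from the schedule. The most abundant gene of the list, the myoglobin gene Mb, had a log2 fold change of 0.36 ± 0.16 (FDR = 0.139). Whether these rises differ from those of the members was not tested.

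Csrp3, Ankrd2 and Hspb7 also varied with the members. Their r with Tnnt1 was 0.81, 0.76 and 0.81 in the LD group (rho 0.55, 0.66 and 0.66) and 0.84, 0.83 and 0.86 in the ADV group. Without the 2 LD mice farthest from the Tnnt1 median their r in the LD group was lower, at 0.42, 0.40 and 0.52. Leaving those mice out also narrows the range of Tnnt1, which by itself can lower an r. Pln, the brake on SERCA2, was the 1 gene of the list with a lower fitted level in the ADV group (log2 fold change −0.35 ± 0.29, FDR = 0.428) and is named after its values were seen. Its r with Tnnt1 was 0.86 in the LD group and 0.56 in the ADV group, or 0.70 and 0.42 without the 2 mice farthest from the Tnnt1 median.

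Among 16 regulators known to bear on slow and fast fiber genes, 15 were tested, with Prox1 below the limit of level. Of these, 3 rose and 2 fell, where 5.61% of all genes rose and 5.20% fell, on a list also chosen with earlier results of these data known. Sox6, a repressor of slow fiber genes, fell from a median of 15.2 to 12.8 FPKM, with 16 of 16 ADV mice below the LD median (log2 fold change −0.26 ± 0.06, FDR = 0.00778). Vgll2, a cofactor of TEAD factors in muscle, rose from 23.9 to 45.04 FPKM, with 16 of 16 ADV mice above the LD median (1.01 ± 0.18, FDR = 0.00152). Of the calcineurin pathway, which activates slow genes through NFAT, the feedback inhibitor and target Rcan1 rose from 41.1 to 106 FPKM (1.27 ± 0.25, FDR = 0.00251), Nfatc1 rose by 0.22 ± 0.07 on the log2 scale (FDR = 0.0442), and the catalytic subunit gene Ppp3cb fell by 0.20 ± 0.06 (FDR = 0.0292). The most abundant regulator, Mef2c, had a log2 fold change of −0.10 ± 0.08 (FDR = 0.401). Sox6, Vgll2, Rcan1 and Ppp3cb passed also without LD mouse 23 and ADV mouse 24, and Nfatc1 did not (FDR = 0.0673). With the clock score as a covariate 0 of the 15 passed, in a fit that cannot separate that score from the schedule.

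The regulators were also set against Tnnt1 from mouse to mouse. With Tnnt1, Sox6 had an r of −0.44 in the LD group and −0.34 in the ADV group, Rcan1 0.40 and 0.72, and Vgll2 0.76 and 0.80. Without the 2 mice farthest from the Tnnt1 median these were −0.35 and −0.28 for Sox6, 0.046 and 0.53 for Rcan1, and 0.57 and 0.61 for Vgll2. Of the 15, Vgll2 and Esrrg passed the adjusted threshold with Tnnt1 in the LD group, where 4.82% of all genes did (Esrrg at an r of 0.78, or 0.45 without the 2 farthest mice), and none passed in the ADV group, where 0.291% did. For comparison, 9 of 9 other members passed with Tnnt1 in the LD group and 7 of 9 in the ADV group, all but Myoz2 and Casq2.

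Because most of these genes are also expressed in the heart, heart markers were checked. Nppa, Nppb, Myl7 and Tnni3, which define heart muscle, and Myh6, a near copy of Myh7 that can take some of its reads, each had a mean below 0.5 FPKM, and the list of 7 summed to between 5.78 and 15.5 FPKM over all libraries. Most of that sum was Myl4, with a mean of 5.06 FPKM (LD) and 6.55 FPKM (ADV) and a log2 fold change of 0.36 ± 0.13 (edgeR, FDR = 0.0676, DESeq2, FDR = 0.0484), and Tnnt2, with 1.49 and 1.74 FPKM. The sum had an r of −0.18 with Tnnt1 among LD mice and 0.54 among ADV mice, and its part in the results was not tested. Exons of 4 members overlap another gene in GENCODE vM39, a release newer than the one behind the deposited counts. Tnnt1 overlaps a long noncoding RNA on the other strand, and Myl2 the gene Ccdc63. Atp2a2 overlaps the genes Anapc7 and Gm43361, and Myh7b the genes Gss and Trpc4ap. The libraries were made with a kit that keeps strand, but whether the counting used it is not given in the sources used here. The r of Tnnt1 with the number of reads on exons was 0.15 in the LD group and −0.22 in the ADV group.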

How the data were processed

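RNA of 30 gastrocnemius samples, 1 per mouse, was sequenced as paired 101-bp reads. The authors deposited estimated counts per transcript row, in steps of 0.5 (14.834% of values are not whole), and FPKM, which equal the counts divided by exon length and library total within 0.0005. The submitters' processing notes name bcl2fastq, STAR 2.7.10a, HOMER 4.11 and GRCm39 (mm39), and the strand option of the counting is not given in the sources used here. Totals were 18875468.5 to 28512674 per library. No column belonged to a sample without labels.

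For each symbol the longest row with a mean over 20 reads was kept, and genes with a mean over 0.5 FPKM were tested (12030). Counts were rounded and compared between LD and ADV with edgeR 4.0.16 (R 4.3.3, TMM, quasi-likelihood test, Benjamini-Hochberg FDR, two-sided). Correlations within groups used log2 CPM with a prior count of 2 and 100000 permutations (python 3.11.15, numpy 2.4.6, scipy 1.17.1), Wilcoxon tests were exact except for the 2591 genes with ties, and the log2 ratios of paired slow and fast genes used permutation tests. The steps were tested on simulated data. Alternatives were DESeq2 1.42.0, limma 3.58.1 on log2(FPKM + 1) and log2(FPKM + 0.1), other scalings, no filter on low genes, rows summed per symbol, a replicate block, clock, Myh7 and GC corrections, and leaving out each mouse. The fits without LD mouse 23 and ADV mouse 24 and with Tnnt1 as a covariate, and the ranges and slopes without those mice, were added after seeing the data.

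The members and all lists were chosen with earlier results of these data known. Genes are named if they are members, if they are in a list and passed the FDR or are its most abundant gene, or if they are among the 10 most like or 5 most opposite to the members. Cell types were checked by the summed level of their markers, and 1 marker list is not reported here.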

Additional observations from a re-analysis of the deposited data

How the results depend on the processing

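In 0 of the 44 alternative fits did a member pass an FDR of 0.05. Casq2 turned to −0.017 on the log2 scale in the 28 libraries with shared label numbers and no block, −0.13 with Myh7 and −0.13 with Tnnt1 as a covariate, and −0.080 without LD mouse 23 and ADV mouse 24. Leaving out each mouse gave it −0.026 (without LD mouse 33) to 0.12, with −0.01 without LD mouse 23 and −0.02 without ADV mouse 24. Atp2a2 turned to −0.10, −0.095 and −0.011 with Myh7, with Tnnt1 and without both mice, and Mef2c to 0.0091 with the GC trend removed. The cause was not tested.

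Of all genes tested, 1301 passed the FDR and 252 also had a fold change over 1.3. These counts were 629 with no filter (FDR alone), 616 and 151 in 28 libraries without block, 644 and 151 with Myh7, 621 and 151 with Tnnt1, 603 and 167 without the GC trend, 0 and 0 with the clock score, and 124 at the fold threshold with limma on log2(FPKM + 1). Leaving out each mouse gave 835 (without LD mouse 28) to 1542 and 190 to 302. The label numbers are not stated to pair mice. Of 14 same-numbered pairs, 6 had deviations correlated above 0.1 (−0.26 to 0.43) and 3 correlated best with their own number, which does not settle whether the numbers pair mice. With the label numbers as a replicate block 494 and 137 genes passed, 3 regulators and 0 members.

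Of the other slow-fiber genes, 1 passed with no filter, in 28 libraries without block, with Myh7, with Tnnt1 and without the GC trend, 0 with the clock score, and 1 to 3 when each mouse was left out. Of the regulators, 3 passed with no filter, in 28 libraries without block and without the GC trend, 0 with the clock score, and 3 (without LD mouse 28) to 5 when each mouse was left out. The median r of members in the ADV group was 0.72 by Spearman's rho and 0.70 without the 2 farthest mice. Depth limits Myh7b most, with 12 to 395 reads per library.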

Other observations

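Markers of other cell types were counted in the same edgeR fit. Of the endothelium markers Pecam1, Cdh5, Kdr, Tek and Emcn, 2 of 5 rose in the ADV group, 1 of 5 smooth muscle markers rose, and 1 of 5 fibroblast markers fell. Among the adipocyte markers 0 of 5 were called, and 0 of 5 among the skeletal muscle markers. Of all genes tested 5.61% rose and 5.2% fell, and lists of 5 are too short to be set against these shares. Of the 5 leukocyte markers 3 were tested and 0 called, and their sum was 8.635 to 18.7 FPKM among LD mice and 7.86 to 15.8 FPKM among ADV mice. The summed smooth muscle level was 40.4 to 71.6 FPKM among LD mice and 48.9 to 86.7 FPKM among ADV mice, where mouse 24 was the highest. The sum of the adipocyte markers had an r of −0.67 with Tnnt1 among LD mice and 0.39 among ADV mice. Other lists had values of like size. The r was −0.74 and −0.24 for the skeletal muscle sum, −0.67 and 0.23 for fibroblast, and −0.60 and 0.09 for leukocyte markers. It was 0.27 and 0.55 for smooth muscle and 0.49 and 0.41 for endothelium markers. These are descriptions over libraries that share depth and dissection, and the part of these cells in the levels of the slow-fiber genes was not tested.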
